A study of Mus musculus with 6 samples.

Results

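The genes described here are those whose symbol starts with Nduf: the nuclear-encoded subunits of respiratory complex I and the Ndufaf assembly factors that help build it. They were chosen by symbol alone among the array's probe sets that carry 1 gene symbol, and 44 of the 18193 named genes matched, through 88 probe sets. By their names 36 were subunits (Ndufa, Ndufb, Ndufc, Ndufs and Ndufv) and 8 were assembly factors. Each gene was read by its brightest probe set over the 6 arrays. Ndufs6 and Ndufa11 were not analysed here.

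The RNA came from bone marrow of adult mice, males and females 3 to 6 months old, hemizygous for a transgene in which renin regulatory sequence drives green fluorescent protein (GFP). Femoral marrow of 4 to 5 mice was pooled on each of 3 sorting days. RNA was taken from a portion of each pool before the sort (presort, n = 3) and from the GFP-positive cells of what remained (sorted, n = 3). Presort and sorted arrays of one number thus come from the same animals. All 6 samples carry the transgene. The sort first removed erythrocytes and debris by scatter, which the presort samples did not undergo, and its lower GFP limit admitted 0.1% of cells from marrow without the transgene.

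Complex I takes electrons from NADH and passes them to ubiquinone while it pumps protons across the inner mitochondrial membrane. Its peripheral arm reaches into the matrix and holds the flavin and the iron-sulfur clusters, and its membrane arm holds the proton channels. The catalytic core is shared with bacteria, the accessory subunits surround it, and assembly factors bind the growing complex and leave it before it is finished. The core subunits of the membrane arm are encoded by mitochondrial DNA and are not among the Nduf genes.

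Complex I genes that differed between the groups were nearly all lower in the sorted cells than in whole marrow from the same pools. The largest called fall was 1.99-fold by a gene's brightest probe set. Other bright probe sets read lower for some genes and higher for some. Of the 44 Nduf genes 19 were lower and 1 was higher (limma without pairing of the samples, Benjamini-Hochberg adjusted p under 0.05 over all genes). Of the 44 genes, 25 had an unadjusted p under 0.05. The share called lower was 43.2%, against 18.1% among all genes tested, and the share called higher was 2.27%, against 14.5%; 32.6% of all genes were called in either direction. The median difference, sorted minus presort on the log2 scale, was -0.46 for the 44 genes and -0.0021 for all genes. With the replicate number as a block, which pairs the samples of a pool, 23 Nduf genes were lower and 1 higher. No call ended with the block. In this comparison of bulk samples fewer cells that express a gene and less RNA per cell cannot be told apart. Median centring of the arrays put the median of all genes at 0.23. The Nduf calls were then 9 lower and 2 higher (Ndufb1 and Ndufa4l2), and a fall smaller than that shift has a sign that depends on the scaling.

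The sorted arrays lay below the presort arrays without overlap for 23 of the 44 genes, 52.3%, against 23.6% of all genes. They lay above without overlap for 2, against 20.9% of all genes. In all 3 pools the sorted sample was the lower of its pair for 33 genes, 75.0%, against 30.8% of all genes, and the higher for 3, against 29.0%. Within single pools 34, 38 and 39 of the 44 genes were lower in the sorted sample of pools 1, 2 and 3. A set of bright genes served as another background, chosen after the values were seen. Of the 31 Nduf genes with a mean log2 of at least 10, 16 were lower (51.6%) and 0 higher, against 25.5% lower and 29.5% higher among the 3341 genes at that level.

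**Figure D1:**
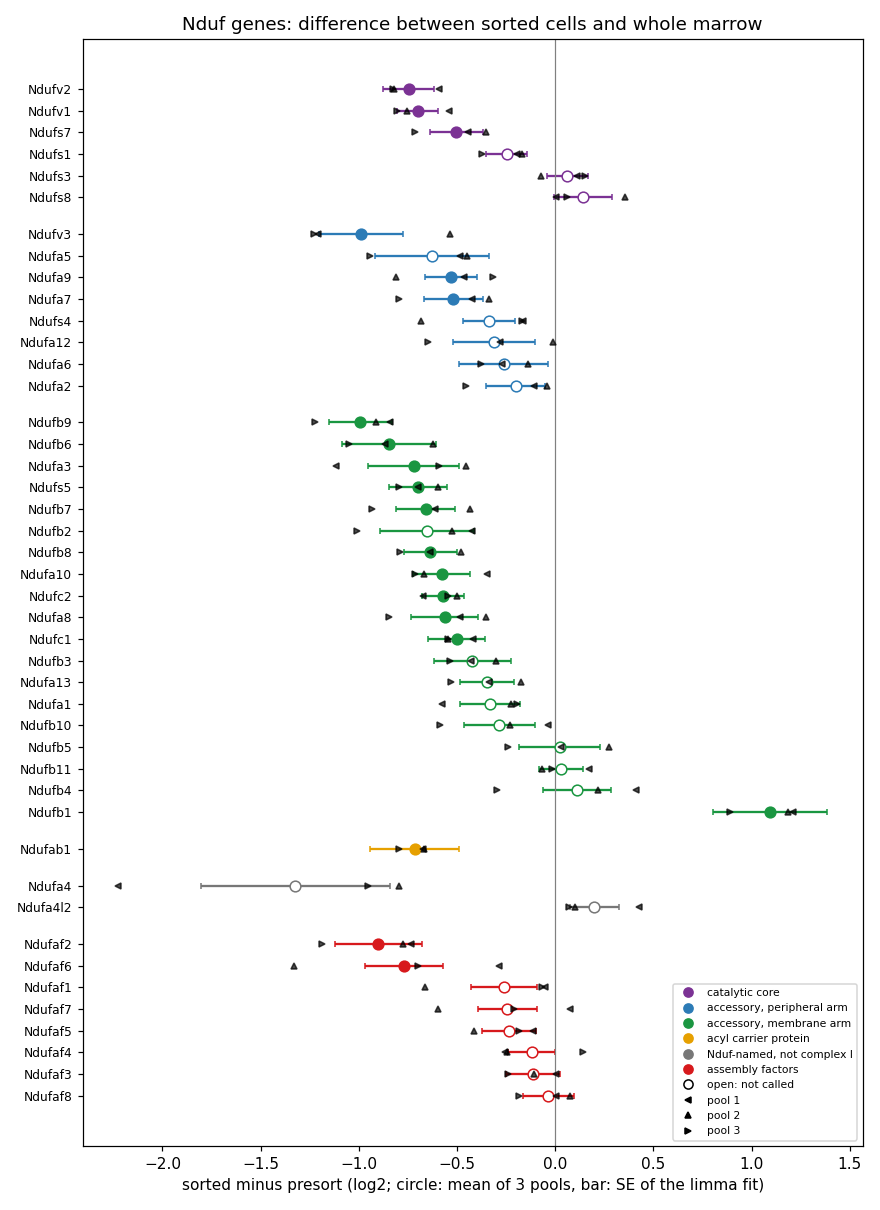
Sorted minus presort differences (log2, horizontal axis) of the 44 Nduf genes, grouped by role. Circles are the means of 3 pools with the SE of the limma fit, filled where the gene was called, and triangles are the single pools; most circles lie left of 0, and Ndufb1 is the filled circle on the right at 1.10.

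The catalytic core was split. Of 6 measured core genes 3 fell, 0 rose and 3 were not called, with a median difference of -0.37. Ndufv1, which binds the flavin and accepts electrons from NADH, stood at 11.83, 11.96 and 11.98 (log2 intensity) in presort replicates 1, 2 and 3 and at 11.29, 11.21 and 11.17 in the sorted ones. Every sorted array was below every presort array. The fall was 0.70 ± 0.10 on the log2 scale (SE; presort 1.63-fold of sorted; limma adjusted p = 0.00134), and the call held in each of 19 alternatives. Its other probe sets, both bright, stood at -0.60 and -0.97.

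Ndufv2, the partner of Ndufv1 that carries an iron-sulfur cluster beside the flavin, read 11.23, 11.58 and 11.37 in presort and 10.63, 10.76 and 10.54 in sorted samples. The groups were apart, with a difference of -0.75 ± 0.13 (SE; limma adjusted p = 0.00292). Its call missed the threshold without pool 3 (adjusted p = 0.0515). Ndufs7, which holds the last cluster before ubiquinone, read 11.70, 11.91 and 11.89 in presort and 11.25, 11.56 and 11.18 in sorted samples. Here too no sorted array reached the lowest presort array, and the difference was -0.50 ± 0.14 (SE; limma adjusted p = 0.0238). The Ndufs7 call was lost without presort replicate 2 or 3, sorted replicate 1 or 3, pool 1 or pool 3 (adjusted p between 0.0512 and 0.221) and under median centring (-0.28). It was lost too in a fit that carried a reading of RNA quality for each array, the excess of the 3' over the 5' probe set of beta-actin (the RNA-quality covariate). This reading was higher in every sorted array than in any presort array, so the fit separates it poorly from the group.

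The other 3 core genes were not called. Ndufs1, the large core subunit that carries several iron-sulfur clusters, stood at 11.04, 11.02 and 11.04 in presort and 10.85, 10.85 and 10.67 in sorted samples, a difference of -0.25 ± 0.10 (SE; limma adjusted p = 0.120). Its groups did not overlap although the call was missed. For Ndufs3, a core subunit without a redox centre, the values were 10.73, 10.91 and 10.78 in presort and 10.84, 10.84 and 10.93 in sorted samples, which overlap. Ndufs8, another cluster-bearing core subunit, read 12.21, 12.36 and 12.27 in presort and 12.22, 12.71 and 12.33 in sorted samples. The differences of Ndufs3 and Ndufs8 were 0.06 ± 0.11 and 0.14 ± 0.15 (SE), and all 6 probe sets of Ndufs8 lay above 0, from 0.08 to 0.21. Without sorted replicate 2 the Ndufs8 difference was -0.0074, so it has no settled sign.

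**Figure D2:**
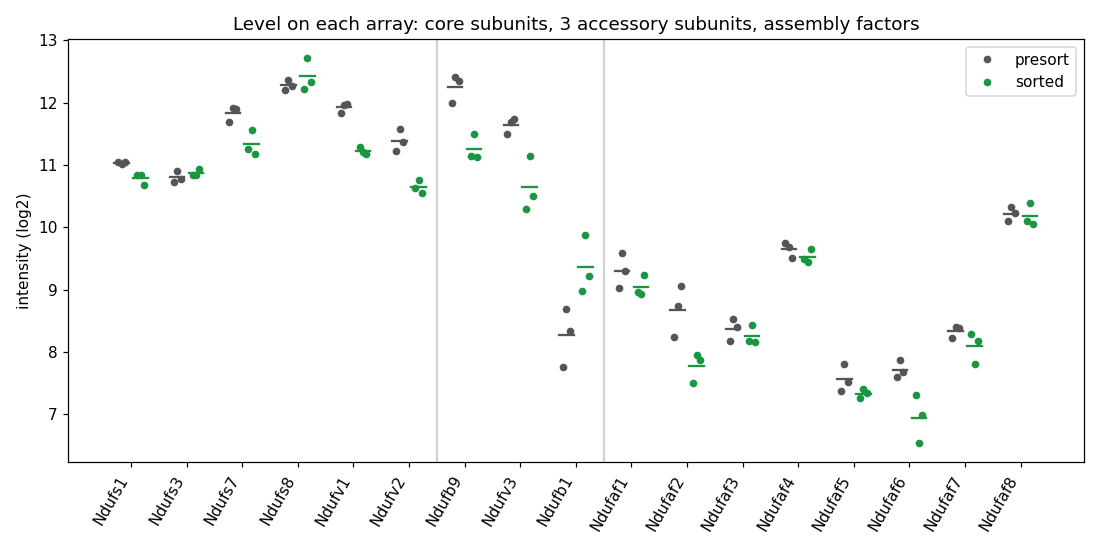
Log2 intensity (vertical axis) on each of the 3 presort (grey) and 3 sorted (green) arrays for the 6 core subunits, 3 accessory subunits and 8 assembly factors, with a bar at each group mean. Green points lie below grey ones for Ndufs1, Ndufs7, Ndufv1, Ndufv2, Ndufb9, Ndufv3, Ndufaf2 and Ndufaf6. They lie above the grey points for Ndufb1 and among them for Ndufs3, Ndufs8 and Ndufaf8.

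Accessory subunits of the membrane arm were the largest group. Of 19 measured members 10 fell and 1 rose, with a median difference of -0.56. Of the 6 measured core genes 3 fell, and 18.1% of all genes were called lower. Differences between the groups of subunits were not tested. Of 8 measured accessory subunits of the peripheral arm 3 fell and 0 rose, with a median of -0.43, and all 8 were lower in every pool. Ndufb9, a membrane arm subunit that anchors the mitochondrial acyl carrier protein, had the largest called fall of the accessory subunits, closely followed by Ndufv3. It read 11.99, 12.41 and 12.35 in presort and 11.15, 11.50 and 11.12 in sorted samples. These groups lay well apart, by -0.99 ± 0.16 (SE; presort 1.99-fold of sorted; limma adjusted p = 0.00201). The call held in each of 19 alternatives, with differences from -1.12 to -0.77.

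Ndufv3, a small subunit attached to the flavin end, read 11.50, 11.69 and 11.73 in presort and 10.29, 11.15 and 10.50 in sorted samples. Sorted replicate 2 was nearest to the presort arrays, and the difference was -0.99 ± 0.22 (SE; limma adjusted p = 0.00864). The call was lost without pool 3 (adjusted p = 0.111). The RNA-quality covariate ended it too, with a difference of -0.65. Ndufb6, a membrane arm subunit, read 11.01, 11.60 and 11.53 in presort and 10.14, 10.98 and 10.48 in sorted samples. Its highest sorted array was just below its lowest presort array, and the difference was -0.85 ± 0.24 (SE; limma adjusted p = 0.0289). Leaving out presort replicate 2 or 3, sorted replicate 1 or 3, or pool 3 ended this call (adjusted p between 0.0675 and 0.217), as did median centring, a pseudocount of 32 and the RNA-quality covariate (-0.45).

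Ndufa3, a small membrane subunit, read 12.34, 12.61 and 12.51 in presort and 11.22, 12.15 and 11.92 in sorted samples, with sorted replicate 1 the lowest. The difference was -0.72 ± 0.23 (SE; limma adjusted p = 0.0463). That call was lost without any 1 presort replicate, sorted replicate 3, pool 2 or pool 3 (adjusted p between 0.0646 and 0.175), and without sorted replicate 1 it stood at -0.45. It was lost too with 5 other settings, among them the mean of probe sets (-0.23) and the RNA-quality covariate (-0.20). Ndufs5 and Ndufb7 are intermembrane-space subunits with paired cysteine motifs. Ndufs5 read 8.88, 9.18 and 8.98 in presort and 8.18, 8.58 and 8.19 in sorted samples, which do not overlap (-0.70 ± 0.15, SE; limma adjusted p = 0.00805). Ndufb7 read 12.33, 12.53 and 12.58 in presort and 11.71, 12.09 and 11.64 in sorted samples, again without overlap (-0.66 ± 0.15, SE; 0.0105). Both calls were lost without pool 3 (adjusted p of 0.0919 and 0.134) and with the RNA-quality covariate (0.0743 and 0.0873). Ndufb7 has a second bright probe set at -1.48; the mean of its probe sets gave -1.07 and median centring -0.43.

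Ndufb1, a small subunit of the membrane arm, was the only Nduf gene called higher as the values were deposited. It read 7.76, 8.69 and 8.33 in presort and 8.98, 9.87 and 9.22 in sorted samples. Every sorted array was above every presort array and the rise was 1.10 ± 0.29 (SE, log2; 2.14-fold; limma adjusted p = 0.0212). It rose in each pool, by 1.21, 1.18 and 0.89 in pools 1, 2 and 3. The call was lost without presort replicate 1 or 3, sorted replicate 2, or pool 3 (adjusted p between 0.0530 and 0.111). It has 1 probe set on this array, so no other reading of it was available, and the direction was positive in all 19 alternatives.

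Of the 20 other accessory subunits 7 fell: Ndufa7, Ndufa8, Ndufa9, Ndufa10, Ndufb8, Ndufc1 and Ndufc2, by -0.64 to -0.50 (limma adjusted p from 0.00460 to 0.0379). With the mean of probe sets Ndufb8 was at 0.0055, its dim probe set being at 0.65, and Ndufa10 at -0.27. Median centring put these 7 between -0.41 and -0.28 and kept only the calls of Ndufb8 and Ndufc2. The RNA-quality covariate kept only those of Ndufa10 and Ndufc2, with Ndufa8 at -0.36. Without the _x_at and _s_at probe sets, which can match several transcripts, Ndufc2 was at -1.07. Leaving out pool 3 ended 6 of these 7 calls, all but Ndufa9, and leaving out presort replicate 2 ended 5, all but Ndufb8 and Ndufc2. The 13 not called were Ndufa1, Ndufa2, Ndufa5, Ndufa6, Ndufa12, Ndufa13, Ndufb2, Ndufb3, Ndufb4, Ndufb5, Ndufb10, Ndufb11 and Ndufs4. Their differences ran from -0.65 for Ndufb2 to 0.11 for Ndufb4, with 10 of 13 below 0 and adjusted p from 0.0735 to 0.956. The single probe set of Ndufb4 was at 4.93 and 5.04 in the 2 groups, near the lower end of the scale, so little can be read from it. The replicate block, which compares samples within pools, called Ndufa5, Ndufb2 and Ndufb3 lower besides (adjusted p = 0.0128 for Ndufa5 and 0.0137 for Ndufb2).

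Ndufab1, the mitochondrial acyl carrier protein, is part of complex I and also serves fatty acid and iron-sulfur cluster synthesis. It read 10.21, 10.88 and 10.75 in presort and 9.54, 10.22 and 9.96 in sorted samples. The highest sorted array barely exceeded the lowest presort array, and within pools the differences were -0.68, -0.67 and -0.80. The difference was -0.71 ± 0.23 (SE; limma adjusted p = 0.0447). Its call ended without presort replicate 2 or 3, sorted replicate 1 or 3, pool 2 or pool 3 (adjusted p between 0.0906 and 0.236) and with 5 other settings, among them the RNA-quality covariate (-0.33) and the mean of probe sets (-0.062). Its other 4 probe sets were dim and lay above 0, and without the _x_at and _s_at probe sets it was read by one of them, at 0.012.

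A pair of genes named with the subunits lies outside the complex: Ndufa4, which has been reassigned to cytochrome c oxidase, and its paralog Ndufa4l2, known as a hypoxia-induced gene. Ndufa4 read 10.69, 11.21 and 11.24 in presort and 8.47, 10.42 and 10.29 in sorted samples. Sorted replicate 1, the array with the highest 3' to 5' differences of the control transcripts, stood far below the other sorted arrays. The difference of -1.32 ± 0.48 (SE) was the largest of all Nduf genes but was not called (limma adjusted p = 0.0732). It was called with the replicate block (adjusted p = 0.00986) and, at -0.69, without sorted replicate 1 (0.0261), and with the RNA-quality covariate it stood at -0.095 (0.763). Ndufa4l2 stood at 5.61, 5.93 and 5.94 in presort and 6.03, 6.03 and 6.01 in sorted samples, a difference of 0.20 ± 0.12 (SE; 0.290), or 0.43 with median centring (0.0226). The sorted values lay just above the presort values on a dim probe set. Without Ndufa4 and Ndufa4l2 the subunits numbered 34, of which 17 fell and 1 rose, with a median of -0.51.

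Among the assembly factors few were called, and their difference from the subunits was not tested. Of 8 Ndufaf genes 2 fell, 25.0%, and 0 rose (2 had an unadjusted p under 0.05), against 17 of 36 subunits, 47.2%, and their median difference was -0.24, against -0.51. The order was not the same in every pool. The subunit and assembly medians were -0.43 and -0.083 in pool 1, -0.39 and -0.50 in pool 2, and -0.59 and -0.20 in pool 3. Among the 5838 genes with a mean log2 of at least 7 and under 10, where 7 of the 8 factors lie, 29.3% were called lower, so the assembly factors' share was near this background. With median centring the assembly median was -0.014 and 1 factor was called.

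Ndufaf2, a relative of the subunit Ndufa12 that binds late in assembly, read 8.24, 8.73 and 9.06 in presort and 7.50, 7.95 and 7.87 in sorted samples. The groups did not overlap and the difference was -0.90 ± 0.22 (SE; limma adjusted p = 0.0152). Ndufaf6, a factor of the phytoene synthase family, read 7.60, 7.87 and 7.68 in presort and 7.31, 6.54 and 6.98 in sorted samples. Sorted replicate 2 was its lowest array, whereas for most subunits that array was the highest sorted one, and the difference was -0.77 ± 0.20 (SE; 0.0180). Both calls were lost without presort replicate 2 or 3, pool 2 or pool 3 (adjusted p between 0.0516 and 0.119), and without pool 2 Ndufaf6 was at -0.49. With the RNA-quality covariate Ndufaf2 was at -0.57 and not called (0.158), and median centring and quantile normalization ended the call of Ndufaf6.

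The remaining 6 assembly factors were not called. Ndufaf1, which works with Ecsit and Acad9 on the membrane arm, read 9.02, 9.59 and 9.29 in presort and 8.97, 8.92 and 9.23 in sorted samples (-0.26 ± 0.17, SE). Ndufaf3 and Ndufaf4 act together early in assembly. Ndufaf3 read 8.17, 8.54 and 8.40 against 8.17, 8.43 and 8.16, and Ndufaf4 read 9.75, 9.68 and 9.51 against 9.49, 9.43 and 9.65. Their differences of -0.11 ± 0.14 and -0.12 ± 0.12 (SE) were not called. A dimmer probe set of Ndufaf4 stood at -0.65, and with the mean of its probe sets Ndufaf4 was called lower, at -0.38 (limma adjusted p = 0.0355), which made 3 assembly factors lower.

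Ndufaf5, which modifies Ndufs7, read 7.37, 7.81 and 7.52 in presort and 7.25, 7.40 and 7.33 in sorted samples. Ndufaf7, a methyltransferase, read 8.22, 8.40 and 8.38 in presort and 8.29, 7.81 and 8.17 in sorted samples. Ndufaf8, a partner of Ndufaf5, read 10.10, 10.32 and 10.23 in presort and 10.10, 10.39 and 10.05 in sorted samples. All 3 overlapped between the groups, at -0.24 ± 0.14, -0.24 ± 0.15 and -0.034 ± 0.13 (SE).

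Factors with other names moved in both directions. Of 10 measured, 2 rose and 1 fell, near the 14.5% called higher and 18.1% called lower among all genes. Their median of -0.14 turned to 0.083 with median centring and 0.076 with quantile normalization. It was 0.16 with the RNA-quality covariate and 0.053 without sorted replicate 1. Dmac2, a factor for the far part of the membrane arm, read 7.42, 7.36 and 7.23 in presort and 8.75, 8.78 and 8.71 in sorted samples and rose by 1.41 ± 0.11 (SE; limma adjusted p = 4.3e-05). Ecsit, a factor that also takes part in Toll-like receptor signalling, read 7.71, 7.86 and 7.87 against 8.36, 8.72 and 8.64 and rose by 0.76 ± 0.13. Nubpl, which delivers iron-sulfur clusters to complex I, read 9.10, 9.39 and 9.10 against 8.48, 7.90 and 8.26 and fell by 0.98 ± 0.17 on the log2 scale. Each of these 3 was called in the same direction in all 19 alternatives.

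The arrays of a group differed among themselves in the same way for most Nduf genes. Presort replicate 1 was the lowest presort array for 38 of the 44 genes, 86.4%, against 44.7% of all genes. Sorted replicate 2 was the highest sorted array for 31 of 44, 70.5%, against 33.3% of all genes, and presort replicate 2 the highest presort array for 31, against 39.3% of all genes. The median deviation from the group mean was -0.15 in presort replicate 1 and 0.23 in sorted replicate 2, while over all genes it was -0.026 and 0.0023. For the assembly factors sorted replicate 2 stood at -0.011, and for the subunits at 0.26. Leaving out arrays moved the count of lower genes: it was 3 without pool 3, 11 without pool 2, 8 without presort replicate 2, 9 without presort replicate 3, 11 without sorted replicate 3 and 24 without sorted replicate 2.

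**Figure D3:**
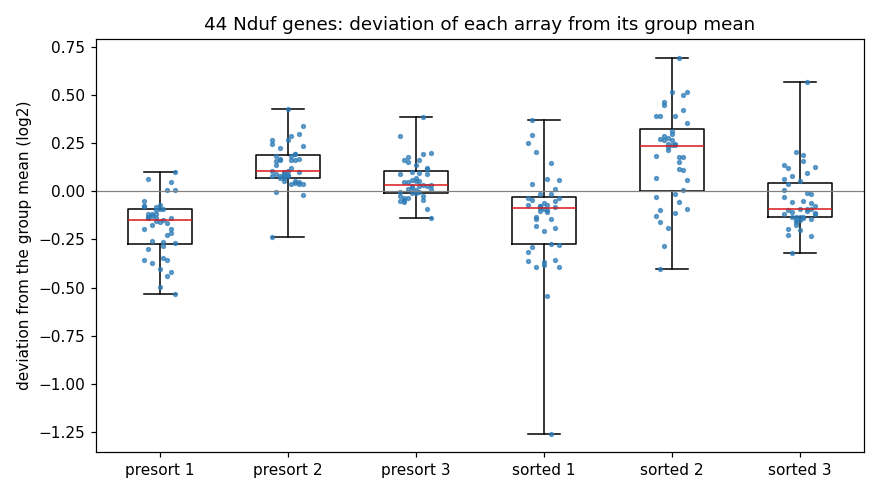
Deviation of each array from its group mean (log2, vertical axis) for the 44 Nduf genes; boxes span the quartiles, red lines are medians and whiskers reach the extremes. Presort replicate 1 lies mostly below 0 and sorted replicate 2 mostly above it, and the lowest point of sorted replicate 1 is Ndufa4.

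Where a gene had several bright probe sets they mostly told the same direction. Among the 14 Nduf genes with more than 1 probe set at a mean log2 of at least 9, all of a gene's bright probe sets had 1 sign for 12, and Ndufb5 and Ndufb11 were the exceptions. For 11 of the 14 another bright probe set read lower than the brightest one, by the most for Ndufb7 (-1.48 against -0.66) and Ndufb9 (-1.50 against -0.99). Another bright probe set read higher for Ndufa7, Ndufb6, Ndufb11, Ndufc1, Ndufs8, Ndufv1 and Ndufv2 (for Ndufv2 -0.50 against -0.75). Some genes had other probe sets on both sides. A dim probe set of Ndufs4 was above 0, at 1.60, while its brightest stood at -0.34.

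The promoters of the Nduf genes were searched for 3 letter patterns of factors known to act on nuclear genes of the respiratory chain. Windows from 250 bases before to 50 after the start were taken from RefSeq (build GRCm38.p6), which held 39 of the 44 genes, and both strands were read. The NRF1 pattern, GCGCA and GCGC with any base (N) between, was present in 7 of 39 genes, 17.9%, against 4.60% of all 32851 windows. The core of the GABPA site, CCGGAAG, was in 6 of 39, 15.4%, against 8.86%. The YY1 pattern AANATGGC was in 13 of 39, 33.3%, against 6.05%. The end of CCGGAAG can coincide with the start of AANATGGC, but no matches of different patterns overlapped in these promoters. A match describes letters, not a bound site.

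In 7 genes, Ndufa3, Ndufa9, Ndufb8, Ndufc1, Ndufs4, Ndufs7 and Ndufaf8, the YY1 letters stood on the gene's own strand within the 50 bases after the start, which is 17.9% of the 39 genes against 1.38% of all windows. This narrower count was not planned. The pattern includes ATG, and whether these matches fall on start codons was not examined. Of these 7 genes 5 were called lower. Over the whole window it was 6 of the 13 genes with the YY1 pattern, 2 of the 7 with the NRF1 pattern and 2 of the 6 with the GABPA core, beside 43.2% of all 44 Nduf genes and 18.1% of all genes. The 30 bases around the YY1 letters (capitals) are given for 2 subunits that fell and an assembly factor that was not called. These windows were picked by the letters, so their likeness in them was fixed in advance. They lie at chr7:3617384-3617413 (plus strand), chr10:80249462-80249491 (plus) and chr11:120098933-120098962 (plus).
Ndufa3: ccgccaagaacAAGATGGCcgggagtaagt
Ndufs7: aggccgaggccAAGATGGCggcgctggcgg
Ndufaf8: aggcagggcccAAGATGGCggcgccctcga

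The NRF1 letters (capitals) are shown for the subunit Ndufs5, which fell, and for Ndufaf4 and Ndufaf5, which were not called. They lie at chr4:123718265-123718294 (minus strand), chr4:24897960-24897989 (plus) and chr2:140170652-140170681 (plus).
Ndufs5: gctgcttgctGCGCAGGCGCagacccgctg
Ndufaf4: ccagatgtctGCGCATGCGCctgtgcggaa
Ndufaf5: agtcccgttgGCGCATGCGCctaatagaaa

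The 250 bases before the start are given for Ndufv1, whose fall held in every alternative, and for Ndufb1, the gene that rose, at chr19:4012756-4013005 and chr12:101975739-101975988, both on the minus strand. Neither window holds any of the 3 patterns on either strand.
Ndufv1: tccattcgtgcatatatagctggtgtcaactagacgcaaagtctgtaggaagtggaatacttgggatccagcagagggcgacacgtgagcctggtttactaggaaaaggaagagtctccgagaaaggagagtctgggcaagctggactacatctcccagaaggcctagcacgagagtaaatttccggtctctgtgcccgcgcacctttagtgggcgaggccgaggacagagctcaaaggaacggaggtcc
Ndufb1: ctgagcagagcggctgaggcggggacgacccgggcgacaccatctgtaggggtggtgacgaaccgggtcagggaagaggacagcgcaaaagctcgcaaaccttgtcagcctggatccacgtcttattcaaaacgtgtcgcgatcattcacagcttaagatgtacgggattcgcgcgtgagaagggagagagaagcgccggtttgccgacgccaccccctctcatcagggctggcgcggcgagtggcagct

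The other respiratory complexes differed from presort by amounts like those of the complex I subunits. Their counts stand beside 18.1% called lower and 14.5% called higher among all genes. Among genes with a mean log2 of at least 10 these shares were 25.5% and 29.5%. No excess over either background was tested. In complex II, which links the citric acid cycle to ubiquinone, 2 of 4 genes fell and 0 rose (median -0.44), led by the membrane anchor gene Sdhc at -1.56 ± 0.19 (SE; limma adjusted p = 0.000469). In complex III 3 of 9 fell and 0 rose (median -0.36), with Uqcr11 at -1.14 and Uqcrc1 at -0.84. In complex IV 3 of 9 fell and 1 rose (median -0.48). The riser was Cox7c, which read 8.05, 7.31 and 7.99 in presort and 10.59, 9.75 and 9.14 in sorted samples, a rise of 2.04 ± 0.36 (SE; 0.00309). In the ATP synthase 6 of 15 fell and 0 rose (median -0.47), with Atp5g1, a gene of the membrane ring, at -1.17 and Atp5o at -1.03. With the replicate number as a block 5, 6 and 10 genes of complex III, complex IV and the ATP synthase were called lower. The mean of probe sets gave 3, 5 and 7. Other settings lowered the counts. They were 2, 2 and 2 with median centring (medians -0.14, -0.25 and -0.25), which also called 1 ATP synthase gene higher. They were 2, 0 and 3 with the RNA-quality covariate and 2, 0 and 2 without pool 3. Complex II had 1 gene lower under each of the 3 settings that lowered the counts. No difference between complex I and the other complexes was tested.

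Genes of iron-sulfur cluster assembly, which supplies the clusters of complex I, fell throughout. All 9 measured genes were called lower, with a median of -0.92 and all sorted arrays below all presort arrays for each. Among all genes 18.1% were called lower, and 23.6% had all sorted arrays below all presort arrays. Glrx5, a glutaredoxin that passes clusters on, read 13.84, 13.90 and 13.78 in presort and 12.02, 12.64 and 12.83 in sorted samples (-1.35 ± 0.20, SE; limma adjusted p = 0.00136). Bola3, which helps place clusters in target proteins, read 11.20, 11.37 and 11.17 against 10.07, 10.18 and 10.13 (-1.12 ± 0.11). Lyrm4, a subunit of the cysteine desulfurase that binds the acyl carrier protein, stood at -1.04 ± 0.17. With median centring 5 of the 9 were called lower (median -0.70), with the RNA-quality covariate 4 (-0.81) and without pool 3 5 (-0.98). Erythroid markers, given at the end, fell in the same samples, and their part in this result was not tested.

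Regulators of mitochondrial gene expression did not move together. Of 12 genes 6 rose and 3 fell, with a median of 0.34, beside 14.5% called higher and 18.1% called lower among all genes. Tfb2m and Polrmt, which start transcription of mitochondrial DNA, rose by 0.94 ± 0.11 and 0.72 ± 0.13 (SE; limma adjusted p of 0.000363 and 0.00343). The coactivator gene Ppargc1a is counted among the 6, but its probe set was near the lower end of the scale, with a mean of 4.77 in presort samples, so little can be read from it. Tfb1m, which methylates mitochondrial ribosomal RNA, stood at -1.14 ± 0.15, and the coactivator genes Ppargc1b and Pprc1 at -0.71 and -0.66. Nrf1 and Yy1, the genes of factors whose letters were searched above, were not called, at 0.11 ± 0.17 and 0.18 ± 0.12 (SE; 0.705 and 0.323). Gabpa rose by 0.34 ± 0.11 (0.0379), a call that held in 8 of 19 alternatives. Without pool 3 1 of the 12 genes was called higher and 2 lower, with the RNA-quality covariate 3 and 3, and with the block 4 and 3. Of 11 genes of the outer membrane and matrix, 1 was called, Vdac1 of the outer membrane channel at -0.83, below the 18.1% share of all genes. With the block 4 of the 11 were lower.

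**Figure D4:**
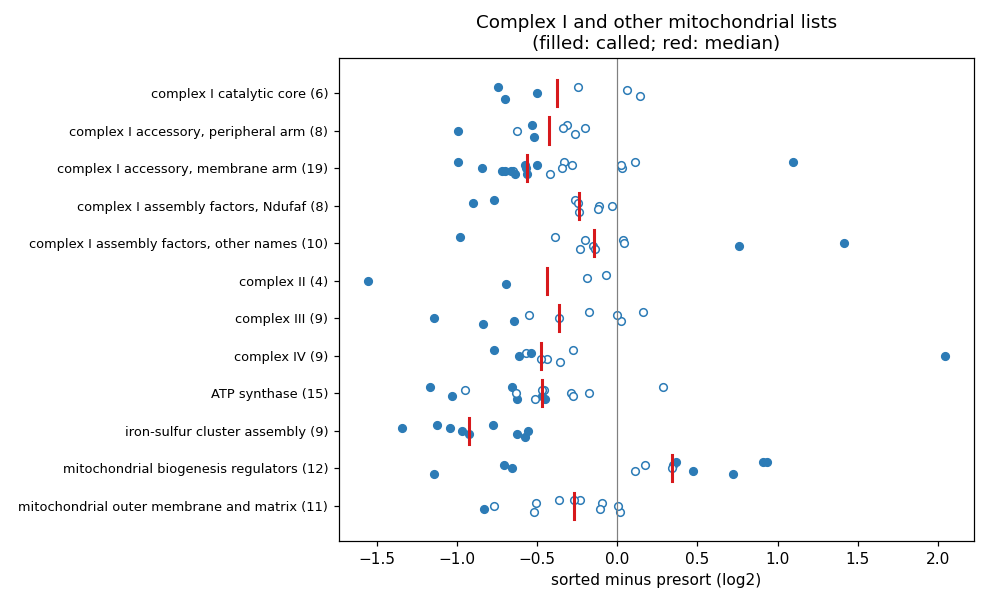
Sorted minus presort differences (log2, horizontal axis) of single genes in the complex I groups and other mitochondrial lists, with the number measured in brackets; filled points were called and red bars are medians. Medians of the respiratory complexes lie between -0.56 and -0.36, that of iron-sulfur cluster assembly at -0.92 and that of the biogenesis regulators at 0.34.

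The cell types and the RNA quality of the 2 groups moved with these results, and their part in the results was not tested. All 9 measured B lineage markers rose, and their summed intensity (log2) ran from 13.25 to 14.26 in presort and from 16.09 to 16.19 in sorted samples. All 11 erythroid markers fell (16.38 to 16.42 against 14.47 to 15.28), as did all 11 neutrophil markers (17.63 to 17.71 against 15.81 to 16.71), all 10 monocyte and macrophage markers (14.46 to 14.88 against 11.07 to 12.37) and all 11 markers of dividing cells (15.73 to 15.74 against 13.14 to 13.80). Of 7 markers of NK and T cells 2 fell (11.87 to 12.00 against 9.54 to 10.28), and of 5 megakaryocyte markers 2 (10.25 to 12.63 against 9.20 to 11.17). Of 7 mural and juxtaglomerular markers, the cells in which renin is best known, 1 rose and 1 fell, with sums of 9.75 to 10.32 in presort and 8.80 to 9.39 in sorted samples. The gene that fell, Acta2, was the brightest of the 7 (mean 9.56 in presort and 7.65 in sorted samples). The median difference of the 7 was 0.015. The 3' probe set of the beta-actin control exceeded its 5' probe set by 0.96 ± 0.15 (SD, n = 3) in presort and 2.05 ± 0.98 (n = 3) in sorted samples, and sorted replicate 1 was at 3.17. Without that array 14 Nduf genes were lower and 1 higher, and with the covariate 6 were lower and 1 higher.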

How the data were processed

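Each of the 3 presort and 3 sorted RNA samples was hybridised to its own Affymetrix array. The table the authors deposited holds linear intensities; per the submitters' processing notes RMA was used, and its version was not given in the sources used here. Depth does not apply to arrays; their number limits precision.

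Log2 was taken with no pseudocount. Of 45101 probe sets 34945 carried 1 gene symbol, from the platform's annotation, and the brightest one over 6 arrays stood for a gene. limma 3.58.1 in R 4.3.3 compared sorted with presort over 18193 genes (lmFit, eBayes, two-sided, Benjamini-Hochberg threshold 0.05, no filter). Figures used matplotlib 3.10.9 in Python 3.11.15. Tested on simulated data of 18193 genes, the comparison recovered 52% of log2 changes of 1 and 95% of changes of 2, with 1 false call. Only 100 genes were changed by each amount, whereas 32.6% of all genes were called in the data. Changes smaller than 1 and differences shared by a pool were not simulated. The recovery therefore need not hold for the falls described here.

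Members and lists were chosen with earlier results of these data known, so counts are set beside the share of all genes called and no list was tested. The named genes are the core subunits, Ndufab1, Ndufa4, Ndufa4l2 and all Ndufaf genes. They include the 6 largest called falls and the called rise of the other subunits, with up to 3 genes of each other list. Nrf1, Yy1, Gabpa, Polrmt, Ppargc1b and Pprc1 were added after their values were seen. So were the 30-base motif windows and the background of bright genes. The count of letters on the own strand after the start was not planned either. Samples of one number share a pool of animals, so numbers pair them; deviations of same-numbered samples correlated at 0.39, 0.20 and -0.026. A block for the replicate number was an alternative, as were other scalings, probe set rules, filters, weights and left-out arrays. Those other alternatives, like the main fit, had no block.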

Additional observations from a re-analysis of the deposited data

How the results depend on the processing

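The 20 calls among the 44 Nduf genes were refitted under 19 alternatives. Ndufb9 and Ndufv1 were called in each of them, 18 of the 20 kept 1 sign throughout, and Ndufab1 and Ndufb8 did not. The replicate block called 23 Nduf genes lower and 1 higher, with the same medians, and ended no call. With median centring 9 were lower and 2 higher (8 and 2 of the subunits, 1 and 0 of the assembly factors), with medians of -0.28 for subunits and -0.014 for assembly factors. Quantile normalization over genes left 1 assembly factor lower and their median at -0.016. With the mean of probe sets the subunit median was -0.35, and 12 subunits and 3 assembly factors were lower. The RNA-quality covariate left 6 lower (5 subunits and 1 assembly factor) and a subunit median of -0.32. The cause was not tested. The covariate ran from 0.81 to 1.11 in presort and from 1.43 to 3.17 in sorted arrays. As these ranges do not overlap, the fit separates the covariate poorly from the group. Leaving out single arrays or pools gave 3 to 24 Nduf genes lower and 0 to 1 higher, 3 to 22 subunits lower and 0 to 1 higher, and 0 to 2 assembly factors lower; without pool 2 it was 11 Nduf genes, all of them subunits. Their medians ran from -0.59 to -0.42 for subunits and from -0.33 to -0.10 for assembly factors. A fit without 1 array leaves 5 arrays and one without a pool 4, so fewer samples enter these fits.

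Signs changed for 13 Nduf genes, among them Ndufab1 and Ndufb8, which were called lower, and Ndufs4. With median centring Ndufa2 was at 0.026, Ndufaf3 at 0.11, Ndufaf4 at 0.11 and Ndufaf8 at 0.19. With quantile normalization over genes Ndufaf3 was at 0.096, Ndufaf5 at 0.010 and Ndufaf8 at 0.029. With the mean of probe sets Ndufb11 was at -0.096, Ndufb5 at -0.095, Ndufb8 at 0.0055 and Ndufs4 at 0.32. Without _x_at and _s_at probe sets Ndufab1 was at 0.012, and with array weights Ndufb11 was at -0.004 and Ndufb5 at -0.040. With the RNA-quality covariate Ndufa6 was at 0.11, Ndufaf8 at 0.041, Ndufb11 at -0.11 and Ndufb4 at -0.099. Leaving out single arrays gave -0.14 to 0.033 for Ndufaf8, -0.044 to 0.077 for Ndufb11 and -0.015 to 0.25 for Ndufb4, and leaving out pools gave -0.090 to 0.041, -0.041 to 0.078 and -0.040 to 0.31. Over both, Ndufb5 ran from -0.17 to 0.17 and Ndufs8 from -0.0074 to 0.24.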
